A study of Caenorhabditis elegans with 2 samples.

Results

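The regions described here are 358 ChIP-seq intervals at the 3′ ends of protein-coding genes of Caenorhabditis elegans, 7.16% of the 5000 strongest intervals in a deposited pooled list of 30000. They were chosen by position and signal: the summit, the deposited point of highest signal in an interval, had to rank among the 5000 of highest pooled signal. It also had to lie more than 250 bp from every start of a tRNA, snoRNA, snRNA, rRNA, miRNA or ncRNA gene, and outside the window from 1000 bp upstream to 200 bp downstream of every protein-coding start. Of the summits left outside coding exons, those in an annotated 3′ UTR were kept, 150 in all, with the 208 that lay outside every gene and at most 500 bp past a protein-coding gene end. The 358 intervals belonged to 339 genes, and 1.7% of all 19973 protein-coding genes had such an interval. Only 14170 of the 19973 had any sequence that met the positional conditions. Shares of genes given below are over all genes of a list, with or without such sequence.

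Both samples came from strain OP569, which carries the unc-119(tm4063) mutation and the transgene wgIs569, an nhr-111 construct with a TY1, EGFP and 3xFLAG tag plus an unc-119(+) rescue. Whole L4 larvae of mixed sex were used, 48 h old, from cultures synchronised by L1 starvation after bleaching. Chromatin was sheared by sonication and an anti-GFP antibody was used to precipitate the tagged receptor. The 2 samples are biological replicates of a single group, so no condition was compared and no test across conditions was possible. Since whole animals were used, binding in more cells and stronger binding per cell cannot be told apart, and the transgene adds copies of nhr-111 to those the animals carry. The pooled list was made from both replicates, so it is not independent of either.

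NHR-111 belongs to the nuclear hormone receptors, zinc-finger transcription factors that in many animals recognise short DNA half-sites such as AGGTCA. Transcription of a protein-coding gene runs past the point where its RNA is cut, and the cut is placed by signals near the gene end, of which AATAAA is the best known. Worm genes are densely packed, and neighbours on opposite strands often meet end to end, so a summit past one gene end can also lie near the end of another gene.

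The summits of the strongest regions show what sequence lay there. The 29 bases centred on the summit follow for 8 of the strongest intervals, each from a different gene and read on that gene's strand, with the summit base in capitals. They are reference bases of assembly WBcel235 from RefSeq, the same sequence as the ce11 build of the deposited lists.
T28H10.2, chrV:12510155-12510183, minus strand: cccagactacctagActacctagactacc
F09E5.7, chrII:5353852-5353880, plus strand: acgccaaaattttgAgccacttgaccacg
zig-11, chrV:1875670-1875698, minus strand: agaaatttcactttTctccccgatttata
xbp-1, chrIII:4195558-4195586, plus strand: gacatgcactgattCacaccacgtggccc
klp-18, chrIV:7043556-7043584, plus strand: ggttggagtagaatTttagacatcttttt
F25E2.2, chrX:806678-806706, minus strand: acacaagagacgcaGcaacaaacacccct
cpg-1, chrIII:4491487-4491515, plus strand: tagctgtatttgatAtattcgctcaaaag
Y71H2AM.3, chrIII:2811643-2811671, plus strand: ttttttttcgtcaaAgtttcctttttttt
The first of these was a tandem repeat. The last lay in runs of T.

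Of the 8 gene ends, 4 that hold AATAAA and lie before their summit were picked to show the poly(A) signal. Each line gives the last 30 bases to the annotated end on the gene's strand, with AATAAA in capitals.
T28H10.2, chrV:12510645-12510674, minus strand: aagtgcaaAATAAAaagaatgctttgtaat
F09E5.7, chrII:5353680-5353709, plus strand: tgcctgatgAATAAAtataAATAAAtgaaa
xbp-1, chrIII:4195329-4195358, plus strand: atatttAATAAAaacagccatacatttttg
cpg-1, chrIII:4491363-4491392, plus strand: catgcaactaaAATAAAatgcttgtgcctg
The summits of these 4 lay 109 to 476 bp past the end. Of the other gene ends, that of Y71H2AM.3 also held AATAAA, those of zig-11, klp-18 and F25E2.2 did not, and the summits of zig-11, klp-18 and Y71H2AM.3 lay before the end.

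The 358 intervals were all 404 bp wide. Their signal, on a scale that the sources used here do not give, ran from 59.3 to 193.7 with a median of 71.3, and their ranks in the pooled list ran from 46 to 4977. Because rank chose the regions, these values describe them and support nothing. At the rank limit, the last intervals inside were those of fhip-1 at rank 4942 and vhp-1 at 4977, and the next that met the other conditions were those of ekl-7 at 5037 and cup-14 at 5041. At the 500 bp limit, pinn-4 at 485 bp and oac-9 at 500 bp were kept, and T28B8.1 at 506 bp and act-5 at 515 bp were not. Distances to a small RNA start were 256 bp at Y73B6A.1 and 265 bp at W06H8.6 just inside, with F38E11.6 at 240 bp and daf-5 at 247 bp just outside. Distances upstream of a protein-coding start were 1020 bp at R74.8 and 1041 bp at pinn-4 just inside, with F28B12.6 at 995 bp and rsp-5 at 997 bp just outside. Of the 358, 39 (10.9%) were in the authors' list thresholded by the irreproducible discovery rate, where 10% of the 5000 were. That list held every member up to pooled rank 485 and none from rank 502 on, so this share follows from the rank that chose the members.

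The median summit lay 82 bp past the end, with quartiles 154.8 bp before it and 226.8 bp past it. Only 86 summits (24.0%) lay within 100 bp of the end on either side, and 164 (45.8%) within 200 bp. The 3′ UTR summits had a median of 207.5 bp before the end, and 10 of them lay more than 1000 bp before it. The farthest was 4671 bp before the end of unc-43, which encodes a calcium/calmodulin-dependent kinase and has transcripts that stop short of the gene's end. The summits past the end also had a median of 207.5 bp.

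**Figure D1:**
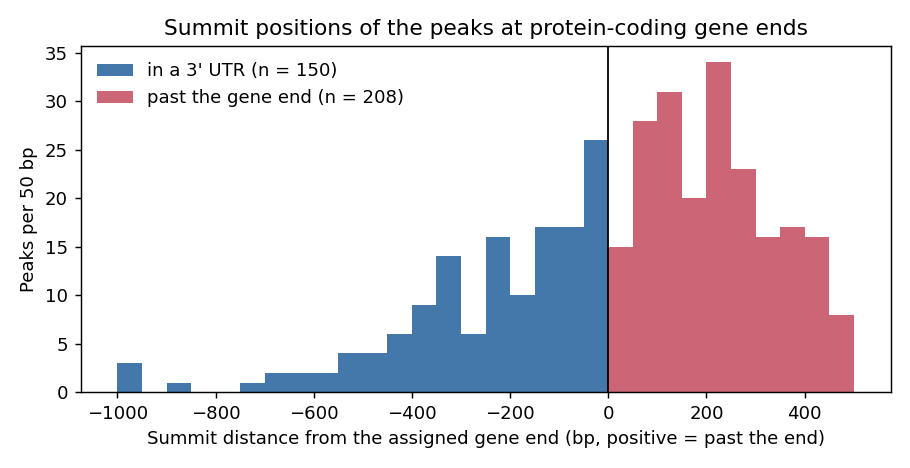
Number of summits per 50 bp by distance from the end of the assigned gene, in bp, with 3′ UTR summits (n = 150) left of the line and summits past the end (n = 208) right of it. The 10 summits more than 1000 bp before the end are not drawn; the others spread widely on both sides, and the limit at 500 bp is set by the rule.

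To weigh these counts by the room available, the bases that the positional conditions leave at gene ends were counted, 5.56 Mb in all, of which 2.34 Mb lay in 3′ UTRs and 3.22 Mb past gene ends. These regions held 64.3 summits per Mb in the pooled list, against 49.9 over all chromosomes. With the 5000 strongest intervals of each replicate taken alone, the values were 71.5 in replicate 1 and 61.6 in replicate 2, or 66.6 ± 6.99 per Mb (SD, n = 2). Intergenic sequence farther from gene ends held 22.6 per Mb in the pooled list and 23.2 ± 1.57 in the replicates, so both replicates had more summits per Mb at gene ends. Coding exons held 66.6 per Mb, close to gene ends, promoter windows 50.4, introns and 5′ UTRs 34.2, and sequence around small RNA starts 214.3. These densities were added after earlier values had been seen, and repeats in the sequence were not masked.

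Within gene ends, the density was 48.8 per Mb in the pooled list over the last 100 bp of 3′ UTRs, 59.0 in replicate 1 and 44.2 in replicate 2. Over the first 100 bp past the end it was 50.9 in the pooled list, 62.7 in replicate 1 and 67.5 in replicate 2. Both replicates alone were above the pooled value there. From 201 to 300 bp past the end it was 91.3 in the pooled list, 99.3 in replicate 1 and 78.4 in replicate 2. From 501 to 1000 bp past the end it was 30.8 in the pooled list, 34.6 in replicate 1 and 34.1 in replicate 2. In both replicates the 201 to 300 bp bin was thus above its neighbours on both sides. The replicates differed most between 100 and 200 bp before the end, with 108.6 per Mb in replicate 1 and 49.2 in replicate 2, and no order is read from that bin.

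**Figure D2:**
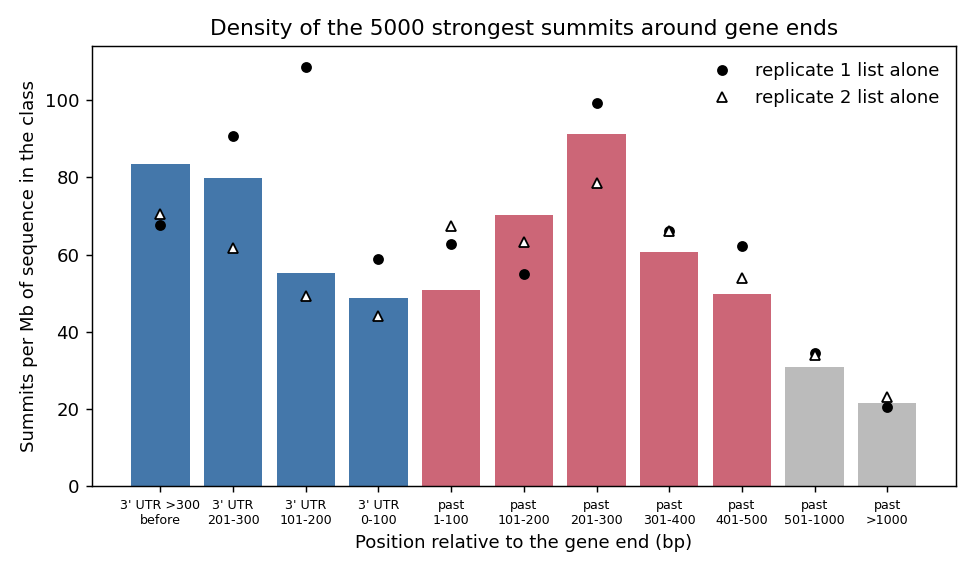
Summits per Mb of available sequence (vertical axis, from 0) by position relative to the gene end in bp. Bars give the pooled list, filled circles replicate 1 alone and open triangles replicate 2 alone; blue bars are 3′ UTR, red bars sequence up to 500 bp past the end and grey bars intergenic sequence beyond. The bar at 201 to 300 bp past the end is the highest at 91.3, and the bin beyond 1000 bp is the lowest at 21.7.

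In the replicates, 220 of the 358 summits (61.5%) were matched in replicate 1, by a summit at most 200 bp away among its own 5000 strongest, against 56.9% of all 5000. The exact 95% interval of that share was 56.2 to 66.5%. In replicate 2 it was 233 (65.1%, interval 59.9 to 70.0), against 62.7%. Both replicates matched at 124 (34.6%, interval 29.7 to 39.8), against 30.7%, and neither did at 29. The gene-end shares were therefore near those of all 5000. In the full lists of 30000, which include background by the authors' design, 333 had a match in replicate 1, 337 in replicate 2 and 312 in both. At those 312 the signal of replicate 2 was 1.09 times that of replicate 1 in the median, the SD over the replicates was 22.9% of their mean in the median, and replicate 2 was higher at 178. The ratio was 0.996 in 3′ UTRs and 1.13 past gene ends, where all 5000 intervals had 1.13. When the rule was applied to each replicate alone it gave 398 intervals in replicate 1 and 343 in replicate 2, and 110 were shared, 27.6% of the first list and 32.1% of the second.

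The strongest interval, chrV:12509967-12510370, had its summit 476 bp past the end of T28H10.2, with signal 91.1 in replicate 1 and 103 in replicate 2. A second interval of the same gene had its summit 272 bp past the end, with 67.2 in replicate 1 and no match in replicate 2. The next, 157 bp past the end of F09E5.7, had 100.9 in replicate 1 and 88.0 in replicate 2. The interval chrV:1875482-1875885 lay 206 bp before the end of zig-11, an immunoglobulin-domain gene, and 179 bp past the end of cct-7, a chaperonin subunit gene on the other strand, with 93.1 in replicate 1 and 89.9 in replicate 2. Each replicate ranked these 3 intervals among its 100 strongest by itself.

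Behind xbp-1, the transcription factor gene of the unfolded protein response in the endoplasmic reticulum, 2 summits lay 214 and 423 bp past the end. The nearer had 75.1 in replicate 1 and 86.7 in replicate 2. The farther had 49.0 in replicate 1, and its match in replicate 2 was the same interval of 86.7, so replicate 2 placed 1 summit where the pooled list had 2. The summit at klp-18, a kinesin gene of the meiotic spindle, lay 124 bp before the end, with 66.1 in replicate 1 and 86.8 in replicate 2. The neuropeptide gene nlp-40 had its summit 203 bp past the end, with 72.4 in replicate 1 and 66.2 in replicate 2. The eggshell proteoglycan gene cpg-1 had 72.4 in replicate 1 and 65.9 in replicate 2, and its summit, 109 bp past the end, was 126 bp past the end of the convergent gene atf-7. The xbp-1, klp-18, nlp-40 and cpg-1 intervals were all in the thresholded list, as their pooled ranks of 100 to 225 imply.

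The other intervals among the 20 strongest included that of hsp-1, a constitutive heat shock chaperone, with its summit 39 bp past the end. That summit was also 86 bp past the end of the convergent gene nra-1, and its signals were 73.2 in replicate 1 and 62.5 in replicate 2. The proton pump gene vha-16 had its summit 153 bp past the end, with 55.7 in replicate 1 and 60.2 in replicate 2. The malate dehydrogenase gene mdh-2 had 43.2 in replicate 1 and 74.5 in replicate 2, and the ubiquitin-conjugating enzyme gene ubc-1 had 54.8 in replicate 1 and 70.6 in replicate 2. At lin-66, a heterochronic gene, the summit was 590 bp before the end in a long 3′ UTR, with 79.2 in replicate 1 and 39.95 in replicate 2. The remaining genes were F25E2.2, Y71H2AM.3, ftt-2, R02F2.1, rps-27, mak-1 and mbk-2.

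**Figure D3:**
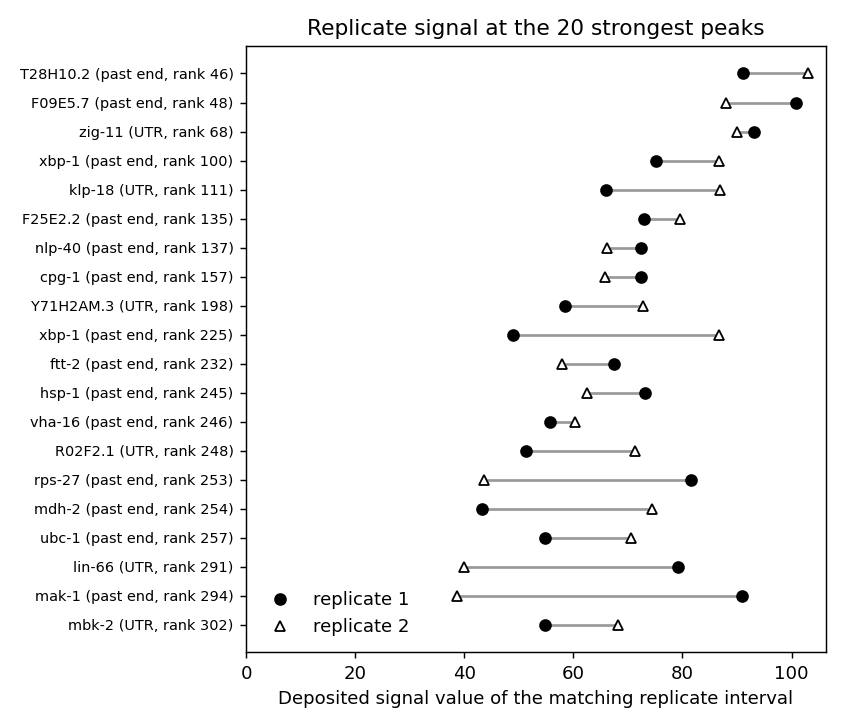
Deposited signal (horizontal axis, from 0) of the replicate interval matched within 200 bp to each of the 20 strongest gene-end intervals, ordered by pooled rank with the strongest at the top. Filled circles are replicate 1, open triangles replicate 2, and lines join the pair. The replicates lay close at the top, for example 93.1 and 89.9 at zig-11, and far apart at mak-1, with 90.8 in replicate 1 and 38.6 in replicate 2.

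Among the 50 strongest intervals, the replicates differed most at lin-29, the zinc-finger gene of the larva-to-adult switch, where the signal was 26.6 in replicate 1 and 78.9 in replicate 2. F25H2.4 had 28.6 in replicate 1 and 77.5 in replicate 2, and the splicing factor gene rsp-3 had 29.2 in replicate 1 and 75.1 in replicate 2. In the other direction, the ubiquitin ligase gene eel-1 had 64.3 in replicate 1 and 23.1 in replicate 2. The kinase gene mak-1 had 90.8 in replicate 1 and 38.6 in replicate 2, and the mitochondrial ribosomal protein gene mrpl-51 had 74.2 in replicate 1 and 32.7 in replicate 2. At these 6 genes the ratios of replicate 2 to replicate 1 ran from 0.359 to 2.97. The signals are those of the nearest replicate summit, which need not be the strongest in reach. At eel-1, the lowest ratio, replicate 2 also had a summit of its 5000 strongest within 200 bp. That ratio therefore depends on the choice of the nearest summit. At lin-29, F25H2.4, rsp-3 and mrpl-51 the lower replicate had no such summit, so a high pooled rank did not mean a high rank in both.

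More than 1 interval lay at the ends of 17 genes, 36 intervals in all. W06H8.6, with a 3′ UTR of 2796 bp, had 4, from 2259 bp before the end to 331 bp past it, with signals of 30.1 to 60.3 in replicate 1 and 39.0 to 62.2 in replicate 2. The other 16 genes had 2 each and were xbp-1, T28H10.2, R02F2.1, ftt-2, mbk-2, F22F7.7, M01H9.3, ddx-17, pos-1, ima-3, rps-9, spk-1, C35B1.5, fhip-1, F32B5.6 and vhp-1. Of the 19 neighbouring pairs, 10 had summits 204 to 216 bp apart, and the widest pair was 1018 bp apart. Such pairs are intervals of 404 bp that overlap by nearly their half-width, and whether they are separate sites was not tested. In the matching, 4 members shared a replicate 1 interval with another member and 6 shared a replicate 2 interval.

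Gene arrangement differed between the summits in 3′ UTRs and those past the end. The next protein-coding gene was convergent, on the other strand with its own end facing the summit's gene, for 219 of the 358 summits (61.2%, interval 55.9 to 66.3). By bases, 50.1% of the available gene-end sequence has a convergent next gene, and 46.2% of all protein-coding genes do. In 3′ UTRs it was 128 of 150 (85.3%, interval 78.6 to 90.6), against 59.3% of the available 3′ UTR bases. Past the end it was 91 of 208 (43.8%, interval 36.9 to 50.8), against 43.4% of the available bases there. At 63 of the 3′ UTR summits the convergent genes overlapped each other. A second protein-coding end was in reach of 120 summits, 81 of them in 3′ UTRs, so the assignment to 1 gene is a choice there.

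Examples of such shared ends were lin-29 with the high mobility group gene hmg-12, where the summit lay 205 bp before the lin-29 end and 204 bp past the hmg-12 end. The sex determination gene tra-2 faced the homeobox gene ceh-38, with the summit inside the ceh-38 3′ UTR and 86 bp past the tra-2 end, and signals of 32.7 in replicate 1 and 32.2 in replicate 2. The germline Argonaute gene hrde-1 had its summit 4 bp past its end and 110 bp past that of C16C10.4, with 34.4 in replicate 1 and 54.6 in replicate 2. The longest annotated 3′ UTR segment of genes with a 3′ UTR summit was 543.5 bp in the median over summits, against 130 bp over all protein-coding genes with one. Longer 3′ UTRs hold more of the sequence the rule searches.

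A promoter peak among the 5000 was also present at 57 of the 339 genes (16.8%, interval 13.0 to 21.2), against 6.79% of all protein-coding genes. Among the genes already named, these included xbp-1, klp-18, ftt-2, hsp-1, lin-66, eel-1, hrde-1 and W06H8.6. With the promoter window cut to 500 bp upstream and 100 bp downstream the share was 10.6%, and over the members of replicate 1 alone it was 12.7%. The 6.79% holds for the wider window in the pooled list, and the share over all genes was not computed for these settings. Summits that lay over 1000 and up to 1500 bp upstream of their nearest protein-coding start, just outside the window, were 24 of the 358 (6.70%). Summits as far upstream of a start that was not the nearest were not counted. A tRNA pseudogene in the RefSeq annotation lay within 250 bp of 1 summit, that of ubc-1, which was 27 bp from C35B1.t1, and 4 summits lay inside a non-coding gene.

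The native nhr-111 gene was itself among the 339. Its summit lay 84 bp before the gene end, in the 3′ UTR, at pooled rank 503, with signal 46.8 in replicate 1 and 59.1 in replicate 2. It was the only interval of the 5000 within 5000 bp of the gene, and it fell just outside the thresholded list of 501. Because the transgene carries nhr-111, signal from the native locus and from the transgene copies cannot be told apart. Of the 274 nuclear hormone receptor genes, 4 had a gene-end interval (1.46%), against 1.7% of all protein-coding genes. The others were nhr-119, nhr-55 and nhr-3, and the nhr-55 summit lay 54 bp past its end and 67 bp past that of the convergent receptor gene nhr-130.

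Ribosomal protein genes made up 9 of the 339, from a list of 78 (11.5%), against 1.7% of all protein-coding genes. They were rps-27, rps-13, rps-27A, rps-6, rpl-7A, rps-9, rps-8, rpl-11.1 and rpl-11.2, with 10 intervals. All of these summits lay past the gene end, from 22 to 390 bp. Those of rps-13 and rpl-7A also lay 100 and 137 bp past the ends of the convergent genes thoc-2 and tald-1. The 10 intervals were 2.79% of the 358, where the list held 0.168% of the available bases. The rule applied to each replicate alone also found 9 genes of the list in replicate 1 and 9 in replicate 2, though these are counts and the genes need not be shared. The strongest, at rps-27, had 81.5 in replicate 1 and 43.6 in replicate 2. That at rps-13 had 66.7 in replicate 1 and 42.5 in replicate 2, while at rps-27A replicate 2 was the higher, with 32.3 in replicate 1 and 54.7 in replicate 2. The interval at rpl-11.1 had 40.8 in replicate 1 and no match in replicate 2. The nearest small RNA starts were 544 bp or farther from these summits.

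Among 35 germ-line genes 6 had a gene-end interval (17.1%), against 1.7% of all protein-coding genes. The rule applied to each replicate list by itself found 3 genes in replicate 1 and 6 in replicate 2, and these can be the same genes. The highest belonged to pos-1, a maternal RNA-binding protein of the early embryo, with its summit 12 bp past the end and signals of 44.8 in replicate 1 and 43.6 in replicate 2. A second pos-1 summit 204 bp before the end had 44.1 in replicate 1 and no match in replicate 2. The Argonaute gene csr-1 had 31.0 in replicate 1 and 59.2 in replicate 2, and the P granule gene pgl-1 had 40.3 in replicate 1 and 49.2 in replicate 2. The others were spn-4, mex-5 and the helicase gene glh-1, which had 43.2 in replicate 2 and no match in replicate 1. In a list of 45 Argonaute and small RNA pathway genes 4 had an interval (8.89%), which were csr-1 again, hrde-1, mut-16 and wago-4. The wago-4 summit lay 13 bp past the end, with 29.9 in replicate 1 and 57.1 in replicate 2, so 3 of these 4 were higher in replicate 2.

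Other lists of broadly used genes had 1 to 3 members each, where 1.7% of all protein-coding genes had a gene-end interval. The vacuolar ATPase, a proton pump, had 3 of 21 genes (14.3%): vha-16, vha-14 with 56.4 in replicate 1 and 54.3 in replicate 2, and vha-19. Respiratory chain and ATP synthase genes had 3 of 42, cox-5A, atp-1 and nuo-4. All 3 also had a promoter peak. Translation factors had 3 of 43, egl-45, iff-1 and eif-2alpha, and splicing factors 3 of 46, rsp-3, snr-7 and rsp-1. Chaperones had 3 of 62, hsp-1 and the endoplasmic reticulum genes hsp-4 and hsp-3. The proteasome had 1 of 33, rpt-3, and ubiquitin genes had 2 of 62, ubc-1 and eel-1. Summits assigned to sna-3, pugs-4 and let-711 also lay 159, 234 and 314 bp past the proteasome genes rpn-2, pbs-1 and rpn-6.1. They were not counted for that list. RNA polymerase II and general factors had 2 of 48, gtf-2E2 and ama-1, the large subunit of the polymerase, with its summit 234 bp past the end and signals of 31.1 in replicate 1 and 29.0 in replicate 2.

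Several large gene families were below the share of all genes. Chemoreceptors had 4 of 1366 genes (0.293%), srt-29, srab-6, srh-37 and srx-14, though these genes held 5.24% of the available bases. C-type lectins had 1 of 239, clec-78, cuticle collagens 1 of 176, col-3, and F-box genes 0 of 324. Above that share were neuropeptide genes with 4 of 147 (2.72%), nlp-40, nlp-68, flp-9 and ins-19, neuronal genes with 2 of 32 (6.25%), unc-43 and unc-64, and homeobox genes with 3 of 93 (3.23%), ceh-38, cog-1 and ceh-14. In the pooled list no gene-end interval was assigned to 81 histone genes, 92 chromatin and Mediator genes, 46 major sperm proteins or 31 actin, tubulin and intermediate filament genes. The same held for 30 body wall muscle genes, 29 intestine genes, 29 factors of 3′ end processing, 18 pharynx genes and 6 vitellogenins. Some of these genes had no sequence that met the positional conditions and could not hold a member. Such sequence was present at 47 of the 81 histone genes, 52 of the 92 chromatin and Mediator genes and 32 of the 46 major sperm proteins. Assignment to 1 gene matters here too. The M03F4.6 summit also lay 26 bp past the actin gene act-4, and the memi-3 summit 379 bp past the histone gene his-65. The rule applied to each replicate alone gave actin, tubulin and intermediate filament genes 1 member in replicate 1 and 2 in replicate 2. Histone, chromatin and Mediator, and intestine genes had 1 and 0, and body wall muscle genes 1 and 1. The rest of these lists had 0 in both. Many of these lists are short, and with 1.7% of all genes as the background a count of 0 or 1 in them says little.

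**Figure D4:**
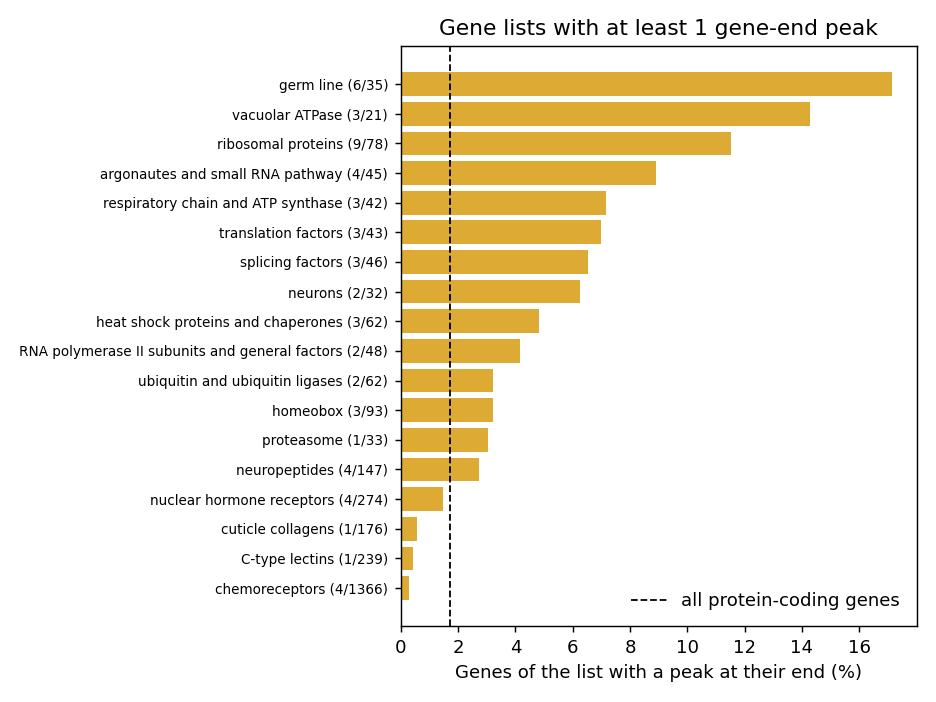
Share of the genes of each list with a gene-end interval (horizontal axis, percent, from 0), for the 18 lists with at least 1, with the counts beside each name. The dashed line marks the 1.7% of all protein-coding genes. Germ-line genes reach 17.1% and chemoreceptors 0.293%. Lists can share genes, as germ line and Argonautes do with csr-1, and each summit counts for its assigned gene only.

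By chromosome, III held 75 summits, 20.9% of the 358, on 12.7% of the available bases, with 118.7 per Mb in replicate 1 and 106 in replicate 2. X held 35, 9.78%, on 20.1% of the available bases, with 34.8 per Mb in replicate 1 and 41.0 in replicate 2. Both replicates thus had more summits per Mb at gene ends on III than on X. The share on X was 13.1% among the other intervals of the 5000 that were not at small RNA starts, the lowest of the 6 chromosomes there too. Chromosome V held 54 summits on 21.5% of the available bases, and I, II and IV held 63 to 67 each.

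Base composition at the summits differed between 3′ UTRs and sequence past the end. Past the end, the GC content of the window from 50 bp before to 50 bp after the summit was 39.6% in the median, against 34.4% in windows 300 bp to either side, and 136 of 208 summits were above their flanks. In 3′ UTRs it was 36.6% at the summit and 37.1% in the flanks, and 79 of 150 were above. Over all 5000 intervals it was 45.5% at the summit and 37.6% in the flanks. The available gene-end sequence as a whole has a GC content of 32.1%, with 30.4% in 3′ UTRs and 33.3% past the end. The summits of both kinds were above that sequence, and so were their flanks.

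**Figure D5:**
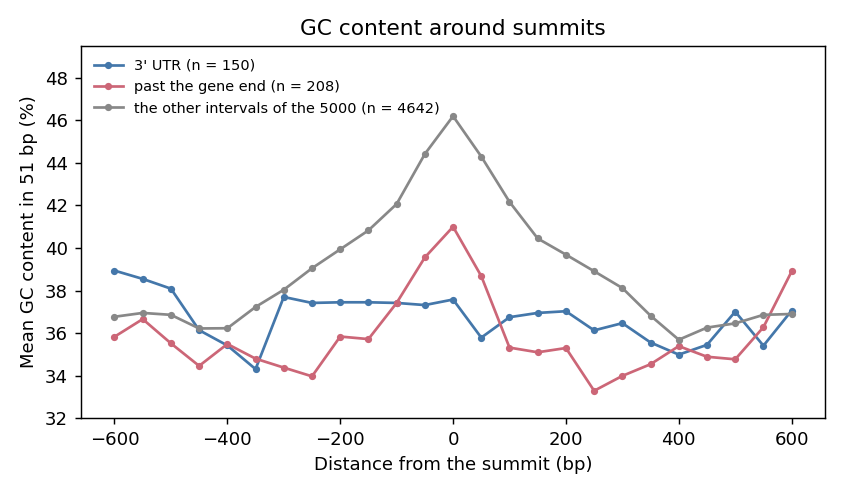
Mean GC content of 51 bp windows (vertical axis, percent, not from 0) by distance from the summit in bp, for 3′ UTR summits, summits past the gene end and the other intervals of the 5000. The line for summits past the gene end has its maximum at the summit, that of the other intervals is higher throughout the centre, and that of 3′ UTR summits is nearly flat there.

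Over all 358, the poly(A) signal was about as common at the summits as beside them. AATAAA, searched on both strands, was in 86 of the 358 windows (24.0%, interval 19.7 to 28.8), in 26.0% of their flanks and in 11% of all 5000. Windows of that length centred on all protein-coding gene ends held it in 67.7%. In 3′ UTRs it was in 33.3% of summit windows and 21.3% of flanks, and past the end in 17.3% of summit windows and 29.3% of flanks. The sense strand of the last 40 bases held AATAAA at 154 of the 339 genes (45.4%), against 47.3% of all protein-coding genes. TTTTTT was in 31.8% of the summit windows, 45.1% of the flanks and 20.7% of all 5000. It was lower at summits than beside them in 3′ UTRs too, with 35.3% and 44.0%.

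The nuclear receptor half-site AGGTCA was in 15 of the 358 windows, on either strand (4.19%, interval 2.36 to 6.82). The flanks held it in 1.54%, all 5000 summit windows in 2.68% and windows at all gene ends in 1.41%. The interval includes the share over all 5000. Of the 15, 12 were past a gene end and 10 had the centre of the motif within 25 bp of the summit. Of the matches nearest to a summit, 4 are shown with the motif in capitals, on the strand that reads AGGTCA.
F22F7.7, chrV:2132003-2132031, plus strand: gcatttttctgtAGGTCAaaccgcaatgg
metr-1, chrII:10931525-10931553, minus strand: atttgacgtggcAGGTCAgaattgaatag
gpr-2, chrIII:9391149-9391177, plus strand: ttccggattccgAGGTCActaaccatgag
K08E5.5, chrIII:10158789-10158817, minus strand: cttcatatgggaAGGTCAtttacaatgaa
The F22F7.7 interval had signals of 44.99 in replicate 1 and 54.3 in replicate 2, and that of metr-1, the methionine synthase gene, 47.5 in replicate 1 and 51.3 in replicate 2. The K08E5.5 interval had 49.8 in replicate 1 and 37.04 in replicate 2, and that of gpr-2, a regulator of spindle positioning, 21 in replicate 1 and 37.2 in replicate 2. The 15 windows ranged over pooled ranks 426 to 4805.

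GAGAGA was in 45 of the 358 windows (12.6%, interval 9.32 to 16.5), in 7.26% of the flanks and in 10.7% of all 5000. Another word, GACGCAG, chosen after its counts had been seen, was in 12 windows (3.35%, interval 1.74 to 5.78) and in none of the flanks, while all 5000 held it in 2.52%. Of the 12, 11 were past a gene end, 10 had GA directly before the word and 5 also held GAGAGA in the same window. The strongest and several others are shown on the strand that reads the word, with the word in capitals.
F25E2.2, chrX:806681-806709, minus strand: accacacaagaGACGCAGcaacaaacacc
mdh-2, chrIII:6606303-6606331, minus strand: agttacagagaGACGCAGacattgcgagg
ubc-1, chrIV:4106683-4106711, plus strand: atagttcaatcGACGCAGaatttcacgct
cox-5A, chrIII:12906827-12906855, plus strand: tcggacatattGACGCAGccggacggacc
imph-1, chrIII:4560696-4560724, minus strand: aaggaaagagaGACGCAGagtccgtgcaa
cyk-7, chrIII:7793135-7793163, minus strand: aagtgctcagaGACGCAGagattcaggaa
At F25E2.2 the word was centred 3 bp from the summit, 299 bp past the gene end, and the signal was 72.9 in replicate 1 and 79.5 in replicate 2. The cox-5A interval had 42.2 in replicate 1 and 56.2 in replicate 2. These 6 lay 207 to 410 bp past their gene ends.

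Intervals at small RNA starts had been removed by distance, and the letters of the B box, GTTCNANNC, an internal promoter element of tRNA genes, were searched in what remained. This word was also chosen after values had been seen. It was in 19 of the 358 windows (5.31%, interval 3.23 to 8.16) and 2.65% of the flanks, against 7.38% of all 5000 and 25.3% of the windows at small RNA starts. Of the strongest, those at F09E5.7 and W06H8.6 are shown on the strand that reads the letters, which are in capitals.
F09E5.7, chrII:5353815-5353843, minus strand: acgtccactaGTTCAATCCcagcggtggc
W06H8.6, chrV:6222542-6222570, minus strand: ttccccacagGTTCAATCCgtattcattt
The W06H8.6 interval lay 1289 bp before the end and had 60.3 in replicate 1 and 39.0 in replicate 2. At F09E5.7 the nearest annotated small RNA start was 4486 bp away. A match to these letters does not show a tRNA gene.

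Tandem repeats, windows in which at least 80% of bases matched the base one period of at most 30 bp away, were found at 4 of the 358 summits (1.12%, interval 0.305 to 2.84), against 0.36% of all 5000. They were both intervals of T28H10.2 and those of ins-19 and ptr-18, all past the gene end. The T28H10.2 intervals overlap each other, so the share and its interval count the same stretch more than once. The T28H10.2 repeat is shown above at its first summit, and the summit of its second interval read as follows on the same strand.
T28H10.2, second summit, chrV:12510359-12510387, minus strand: cctagactacctagActacctagactacc
The ins-19 interval had 29.4 in replicate 1 and 37.6 in replicate 2. The part of repeats in these signals was not tested.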

How the data were processed

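The authors deposited 4 interval lists in ce11, per the labels: 30000 intervals for each replicate, 30000 for both pooled and a thresholded list of 501. Per the deposited text files, a control alignment shared by all was used, which was not analysed here; the aligner and peak caller are not named. Signal values and summit offsets are as deposited, without scaling between lists. Depth is unknown, and exact Clopper-Pearson intervals (95%) cover counting error only.

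Summits were placed with the Ensembl release 115 annotation of WBcel235, in Python 3.11.15 with pandas 2.3.3, NumPy 2.4.6, SciPy 1.17.1 and matplotlib 3.10.9. Symbols came from RefSeq. A 3′ UTR summit was assigned to the gene of that UTR, any other to the nearest end at most 500 bp upstream, and matches were the nearest summits within 200 bp. Placement at promoters and past gene ends, and matching within 200 bp, were tested on summits planted in the annotation. The past-end check covered only planted summits that were classed as past an end. Placement in 3′ UTRs, and the refusal of matches beyond 200 bp, were not tested. No test was run, since signal chose the members.

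The members, the 28 gene lists and the words were chosen with earlier results of these data known. GACGCAG, GTTCNANNC, the repeat measure and the densities were added after values were seen, and 1 list pattern was corrected then. The rule named genes of the 20 strongest members, up to 3 per list, genes with 2 or more members, extreme replicate ratios and threshold neighbours; other names were chosen after their values were seen. Alternatives were other numbers of intervals, each replicate alone, and other windows and matching distances.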

Additional observations from a re-analysis of the deposited data

How the results depend on the processing

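Over 12 results and 10 alternative settings, 91 alternatives were run and 71 stayed within the interval of the value reported. For the number of members a range of 238.7 to 537, set by hand around 358, stood in for an interval. With the 2500 strongest intervals the number of members was 203, the share matched in both replicates 55.7% and the GAGAGA share 8.87%. With the 10000 strongest the number was 673, the matched share 19.2% and the TTTTTT share 38.3%. In both settings matches were still sought among the 5000 strongest of each replicate. The matched shares thus compare lists of unlike depth, and no change in replicate matching is read from them. Each replicate alone gave TTTTTT shares of 37.2% to 40.8%, against 31.8% in the pooled list, and promoter peaks at 12.7% to 16.4% of genes. Members taken from a replicate alone match that replicate by construction. Their shares matched in both, 32.4% for replicate 1 and 34.7% for replicate 2, thus test only the match in the other replicate. These shares are counted among the 71. A promoter window of 500 bp upstream and 100 bp downstream gave convergent neighbours at 53.8% and promoter peaks at 10.6%. A limit of 250 bp past the end gave 53.8% in 3′ UTRs, 70.6% convergent and a median distance of -23 bp, before the end and not past it, by construction of the shorter window. Matching within 50 bp gave 17.9% matched in both replicates, and overlap by at least 1 bp 40.2%. Windows of 51 bp gave AATAAA 10.3%, AGGTCA 2.23%, GAGAGA 5.03% and TTTTTT 19.3%, as fewer bases hold fewer words. Except where named, the cause was not tested. No paired analysis was possible because the series holds a single group and no test was run. The unknown depth and signal scale limit the comparison of signal between replicates, and with 2 samples an SD is itself imprecise.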
